A study of Homo sapiens with 12 samples.

Results

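The transcripts of 35 genes of glycolysis and of the response to low oxygen were followed in HK-2 cells, a human kidney line immortalised from proximal tubule cells. The genes were chosen by name, each name was mapped to 1 human Ensembl ID, and all 35 had a row in a table of 20286 genes measured by RNA sequencing. Cells labelled wild type received recombinant S100A8/S100A9, S100A9 or S100A8 for 48 h, at a labelled dose of 5 mg/mL, or, as control, DMEM with a matching amount of PBS. Each of the 4 groups held 3 libraries, numbered 1 to 3 in the labels. The labels give medium with 10% fetal bovine serum and name no exposure to low oxygen in any group, and the unit of the dose could not be checked. S100A8 and S100A9 bind calcium, are made in large amounts by neutrophils and monocytes, and join as the heterodimer calprotectin.

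Glycolysis splits glucose into pyruvate, which lactate dehydrogenase turns into lactate or pyruvate dehydrogenase passes on to the mitochondrion, and pyruvate dehydrogenase kinases close the second route. When oxygen is short, prolyl hydroxylases (EGLN genes) no longer mark the HIF alpha subunits for destruction, and HIF then switches on most glycolytic genes together with genes such as VEGFA, CA9 and BNIP3. HIF1A is controlled mainly at the level of its protein, so its transcript is not a measure of HIF activity, and the proximal tubule of the kidney in the body is known for making glucose more than for burning it.

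Total counts per library were 15882193 to 20748334, of which the 35 genes took 1.27% to 1.39%. Of 7 epithelial markers, 6 (KRT7, KRT8, KRT18, KRT19, EPCAM and CDH2) stood above 10 FPKM in all 12 libraries and CDH1 stayed under 1 FPKM. Of 14 proximal tubule markers 3 (PAX8, GGT1 and MME) were above 10 FPKM in all 12, and the other 11, among them LRP2, CUBN, SLC34A1, AQP1 and HNF4A, were under 1 FPKM in all 12. FPKM is the authors' value per gene length and library size. All 4 endothelial and 5 of 6 leukocyte markers were also under 1 FPKM throughout, with CD68, a lysosomal gene that epithelium also expresses, as the exception. Of 6 fibroblast and smooth muscle markers 4 were under 1 FPKM, and the others were ACTA2 and COL1A1. The summed level of that list was 7.38 to 8.61 FPKM in S100A8/S100A9 libraries, 6.87 to 7.27 in S100A9, 6.74 to 7.30 in S100A8 and 8.02 to 9.52 in control libraries. The epithelial sum was 786 to 824, 740.3 to 775, 780.1 to 815 and 793 to 805 FPKM in the same order of groups. Both sums were lower in S100A9 libraries than in control without overlap, as was the first in S100A8 libraries, and their part in the results was not tested. The labels do not say that libraries came from separate cultures, so the p-values describe the spread among these libraries alone, and that spread may be technical.

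In control cells the enzymes of the lower pathway, from triose phosphate to pyruvate, held most of the abundant members, while CA9, EGLN3, ALDOC, ANGPTL4 and ANKRD37 were the 5 lowest. GAPDH, which oxidises glyceraldehyde phosphate, had 2577 ± 44.3 FPKM (mean ± SD, n = 3 for each control level), ahead of the enolase ENO1 at 730.4 ± 26.8, the pyruvate kinase PKM at 532 ± 31.6 and the triose phosphate isomerase TPI1 at 469 ± 4.59 FPKM. PGAM1 and PGK1, the steps between GAPDH and enolase, had 253 ± 10.3 and 114 ± 4.62 FPKM. ENO1 was far above the neuron-enriched ENO2, which had 39.0 ± 1.66 FPKM. In the upper steps the aldolase ALDOA led with 263 ± 9.65 FPKM, against 0.503 ± 0.0503 FPKM for the brain-type ALDOC. Of the 2 hexokinase genes among the members, HK1 had 43.1 ± 1.38 FPKM, with 5.04 ± 0.156 FPKM for the inducible HK2. All 3 phosphofructokinase subunits were present, PFKP at 64.2 ± 1.03, PFKM at 28.4 ± 2.05 and PFKL at 15.4 ± 1.60 FPKM. Of the 2 members whose enzymes set the activator fructose 2,6-bisphosphate, PFKFB3 had 22.0 ± 3.53 and PFKFB4 2.69 ± 0.368 FPKM.

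At the pyruvate branch both lactate dehydrogenase subunits were high, with LDHB at 507 ± 8.65 and LDHA at 235 ± 10.5 FPKM, while the kinases PDK1 and PDK3 had 6.84 ± 0.660 and 6.56 ± 0.513 FPKM. Both HIF alpha subunits were abundant as transcripts, HIF1A at 455 ± 14.4 and EPAS1 (HIF-2 alpha) at 208 ± 4.59 FPKM, and the oxygen sensor EGLN1 had 28.3 ± 1.67 FPKM. Its HIF-induced relative EGLN3 was near the limit of detection at 0.357 ± 0.223 FPKM. The HIF targets covered a wide range. VEGFA, a growth factor for vessels, had 70.9 ± 2.83 FPKM, the mitophagy genes BNIP3L and BNIP3 had 56.6 ± 2.48 and 32.5 ± 2.11 FPKM, and the peptide hormone gene ADM had 9.95 ± 1.19 FPKM. ANKRD37 and the lipase inhibitor ANGPTL4 were at 1.06 ± 0.342 and 0.550 ± 0.0985 FPKM. CA9, the membrane carbonic anhydrase used as a marker of hypoxia, had 3, 2 and 2 counts in S100A8/S100A9 libraries, 0, 1 and 1 in S100A9 libraries, 0, 2 and 1 in S100A8 libraries and 3, 4 and 0 in control libraries. A count of 0 allows up to 3 counts, so no difference in CA9 was detectable at this depth in any group, and CA9 is the only member that failed the filter on low counts. The other 34 were tested among 13512 genes.

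**Figure D1:**
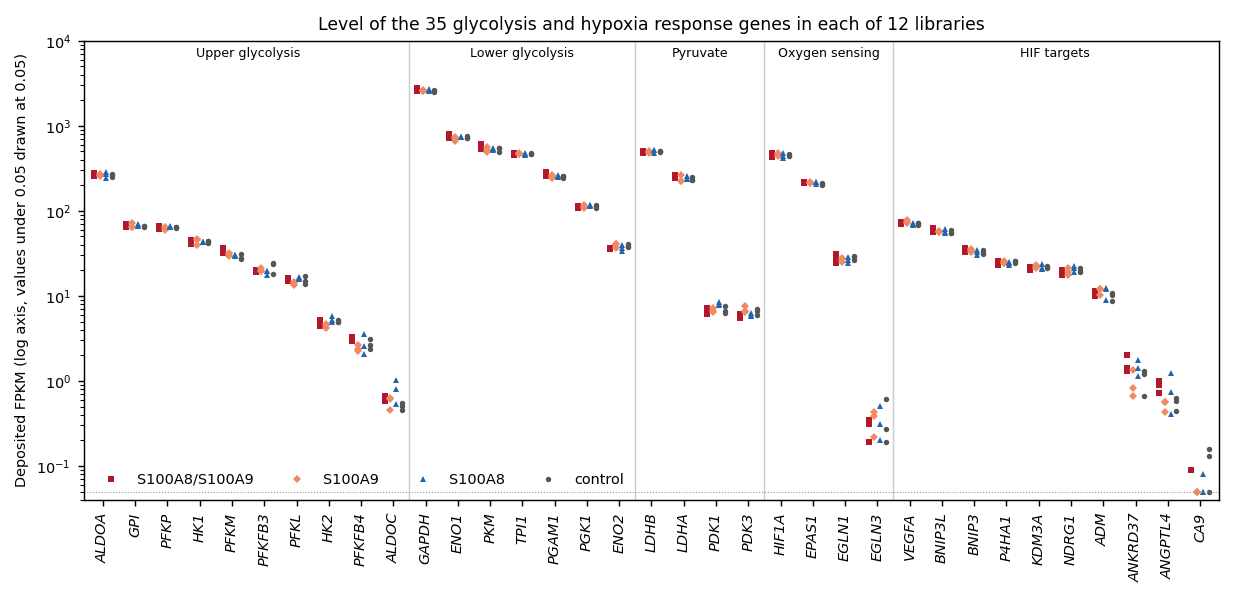
Deposited FPKM of each of the 35 genes (log axis) in 12 libraries, 1 point per library, coloured by group and ordered by role. The groups overlie each other for most genes, GAPDH is highest in every group, and the scatter between libraries widens for EGLN3, ALDOC, ANKRD37, ANGPTL4 and CA9, the genes near or under 1 FPKM.

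In cells given S100A8/S100A9, 0 of the 34 tested members passed an adjusted p of 0.05 against control by edgeR's quasi-likelihood test, and of all 13512 genes 0% did. At an unadjusted p under 0.05 there were 3 members, EPAS1, ANGPTL4 and PGAM1, which is 8.82% of the 34 beside 5.6% of all genes, and DESeq2 and limma on FPKM called 0 members as well. ANGPTL4 stood at 1.70, 1.32 and 1.26 CPM, the count scaled to library size by TMM, in S100A8/S100A9 libraries, against 0.642, 0.815 and 1.08 CPM in control libraries. The 3 treated libraries were all above the 3 controls, with a fitted log2 difference of 0.75 (95% interval 0.07 to 1.44, adjusted p = 0.86). EPAS1 stood at 1137, 1106 and 1141 CPM in S100A8/S100A9 libraries, against 1063, 1047 and 1094 CPM in control libraries. These groups did not overlap either, but the log2 difference was only 0.08 (0.01 to 0.15, adjusted p = 0.85). Genes named for a small p tend to separate in this way. The share of all genes that did so was not counted, here or in the other comparisons of groups. PGAM1, at 513, 460.5 and 479 CPM in S100A8/S100A9 libraries against 462, 432 and 466 CPM in control libraries, overlapped between the groups (log2 difference 0.09, adjusted p = 0.88). A bulk library does not tell fewer cells with a transcript from less transcript per cell.

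By role, the log2 differences of S100A8/S100A9 from control were above 0 in 9 of 10 upper glycolytic genes, 4 of 7 lower ones, 2 of 4 pyruvate genes, 2 of 4 oxygen sensing genes and 4 of 9 HIF targets, beside 49.7% of all genes. In each role 0 genes passed the test. The upper, lower and pyruvate genes together had a median log2 deviation from their means of 0.065, -0.009 and 0.007 in S100A8/S100A9 libraries 1, 2 and 3. In control libraries 1, 2 and 3 it was 0.025, -0.014 and -0.006, so library 1 stood apart in the treated group. Over all 34 members the log2 differences ran from -0.43 (EGLN3) to 0.75 (ANGPTL4) with a median of 0.03, beside a median of -0.00054 over all genes. The lowest p among genes below control belonged to ENO2, with 73.9, 79.0 and 74.6 CPM in S100A8/S100A9 libraries and 81.2, 77.5 and 80.6 CPM in control libraries (log2 difference -0.07, adjusted p = 0.90). PKM, LDHA, PDK1 and HIF1A, which figure in the comparison of replicate numbers, differed from control by 0.11, 0.07, 0.10 and 0.03 on the log2 scale, all with intervals that include 0. VEGFA and HK2 differed by -0.06 and -0.01, and the signs of VEGFA, HK2 and PDK1 turned under at least 1 alternative. For 30 of the 34 members the whole 95% interval lay within -0.5 and 0.5, and the 4 others were the low genes ALDOC, EGLN3, ANKRD37 and ANGPTL4. The same 30 and 4 held for each other comparison of groups.

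S100A9 alone left 0 of 34 members past the threshold against control by edgeR, beside 0.148% of all genes, and 1 member, ADM, had an unadjusted p under 0.05 beside 5.85% of all genes. DESeq2 and limma called 0 members. ADM encodes adrenomedullin, a vasodilator peptide induced by HIF. It stood at 18.0, 15.6 and 18.2 CPM in S100A9 libraries, against 14.8, 16.4 and 12.9 CPM in control libraries, and the groups overlapped (log2 difference 0.23, 95% interval 0.01 to 0.46, adjusted p = 0.83). HK2, the lowest in p of those below control, had 25.6, 25.9 and 23.9 CPM in S100A9 libraries and 27.6, 27.4 and 28.5 CPM in control libraries, with no overlap and a log2 difference of -0.15 (-0.30 to 0.01, adjusted p = 0.86). HIF1A, EPAS1 and VEGFA differed by 0.02, 0.05 and 0.07, and LDHA, PDK1 and ANGPTL4 by -0.05, -0.02 and 0.14. The signs of HIF1A, LDHA, PDK1 and ANGPTL4 turned under at least 1 alternative. Over the 34 members 17 were above 0, including 0 of 4 pyruvate genes, and 32 lay within 0.2 of 0, the others being ADM and ANKRD37, and the median size of the difference was 0.03 beside 0.06 over all genes.

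S100A8 alone also left 0 of 34 members past the threshold by edgeR, DESeq2 or limma, beside 0.0074% of all genes by edgeR. At an unadjusted p under 0.05 there was 1 member, PDK1, beside 3.53% of all genes. PDK1 encodes a kinase that switches off pyruvate dehydrogenase. It stood at 30.6, 35.6 and 33.2 CPM in S100A8 libraries, against 26.9, 31.5 and 28.0 CPM in control libraries. The lowest S100A8 library lay below the highest control library, and the log2 difference was 0.20 (0.01 to 0.40, adjusted p = 1.00). PFKM, the muscle-type phosphofructokinase, had the lowest p of the genes below control, at 61.8, 63.9 and 59.5 CPM in S100A8 libraries and 66.7, 63.4 and 64.9 CPM in control libraries (log2 difference -0.08, adjusted p = 1.00), and its sign turned on the FPKM scale. HIF1A, EPAS1, VEGFA, HK2, LDHA and ANGPTL4 differed by -0.04, 0.05, -0.05, 0.09, -0.00 and 0.35 on the log2 scale, and the signs of HIF1A, LDHA and ANGPTL4 turned under at least 1 alternative. In all, 18 of 34 were above 0.

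**Figure D2:**
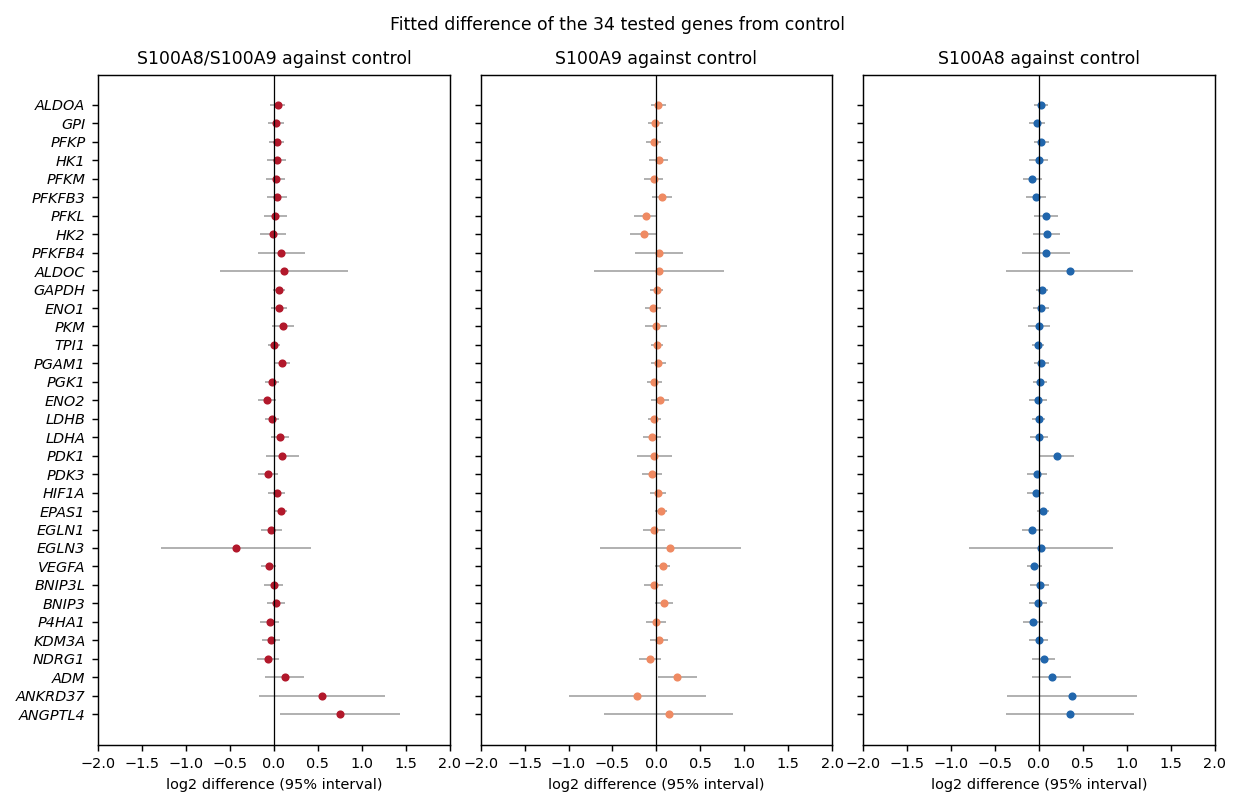
Fitted log2 difference (point) and 95% interval (line) of each of the 34 tested genes for S100A8/S100A9, S100A9 and S100A8 against control. Nearly all points lie within 0.2 of 0, the intervals are wide for ALDOC, EGLN3, ANKRD37 and ANGPTL4, and 0 members passed the threshold in any panel.

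Between the treated arms 0 of 34 members passed either, although more members reached an unadjusted p under 0.05. Against S100A9, S100A8/S100A9 had 6 such members (17.6% of 34, beside 7.15% of all genes), with VEGFA and ENO2 lower and LDHA, ENO1, ANKRD37 and PFKL higher, and 0.252% of all genes passed the threshold. VEGFA stood at 168, 165 and 158 CPM in S100A8/S100A9 libraries, against 179, 172 and 186 CPM in S100A9 libraries. The groups did not overlap, and the log2 difference was -0.13 (-0.21 to -0.04, adjusted p = 0.44). LDHA, the subunit of lactate dehydrogenase favoured by HIF, had 419, 382 and 382 CPM in S100A8/S100A9 libraries and 396, 342 and 353 CPM in S100A9 libraries, which overlapped (log2 difference 0.12, adjusted p = 0.64).

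S100A9 against S100A8 had 5 members with an unadjusted p under 0.05 (14.7% of 34, beside 7% of all genes), HK2, PFKL, PDK1 and NDRG1 lower and VEGFA higher, with 0.185% of all genes past the threshold. HK2, which commits glucose to the cell by phosphorylating it, had 25.6, 25.9 and 23.9 CPM in S100A9 libraries, against 27.7, 29.0 and 32.0 CPM in S100A8 libraries. All 3 S100A9 libraries were below all 3 S100A8 libraries (log2 difference -0.23, -0.39 to -0.08, adjusted p = 0.40). VEGFA showed the opposite order, 179, 172 and 186 CPM in S100A9 libraries against 169, 160.3 and 164 CPM in S100A8 libraries (0.12, adjusted p = 0.44). S100A8/S100A9 against S100A8 had 0 members at an unadjusted p under 0.05 by edgeR, beside 4.43% of all genes and with 0% past the threshold. DESeq2 gave 1 there and limma 2. Its lowest p in each direction belonged to NDRG1, a stress-responsive HIF target, with 53.0, 58.8 and 56.1 CPM in S100A8/S100A9 libraries and 54.7, 63.6 and 63.9 CPM in S100A8 libraries (-0.12, adjusted p = 0.98), and to PFKM, with 67.3, 64.7 and 65.7 CPM in S100A8/S100A9 libraries and 61.8, 63.9 and 59.5 CPM in S100A8 libraries (0.10, adjusted p = 0.98). A test for any difference among the 4 groups called 0 members and 0.222% of all genes, and VEGFA, PFKL and HK2 were the 3 members at an unadjusted p under 0.05 (8.82% of 34, beside 5.91% of all genes). These comparisons share libraries and are not independent of each other.

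The libraries were then compared by their replicate number, which the labels give in each group without saying that it marks a culture, a day or a batch. Among the 3 numbers 4 of 34 members passed the threshold (11.8%, beside 2.59% of all genes), namely PKM (adjusted p = 0.00073), HIF1A (0.0062), PDK1 (0.011) and LDHA (0.012). For number 2 against number 1 it was 7 of 34 (20.6%, beside 4.22% of all genes). PKM, HIF1A, LDHA, ENO1 and PGAM1 were lower and PDK1 and NDRG1 were higher in number 2, where 2.33% of all genes were lower and 1.89% higher. For number 3 against 2 (0.562% of all genes called) and for 3 against 1 (0.0148%) 0 members passed by edgeR, DESeq2 or limma. There 6 members and 3 members had an unadjusted p under 0.05 by edgeR, beside 10.3% and 5.82% of all genes. The tested members varied less over the 12 libraries than most genes, with a median SD of log2 CPM of 0.068, beside 0.095 over all genes. The part of this smaller spread in the share of members called was not tested. The comparisons of numbers set 4 libraries against 4 with group in the fit, and were more precise than those of treatment. The median half-width of the members' 95% intervals was 0.084 for number 2 against 1, beside 0.107 for S100A8/S100A9 against control.

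PKM makes pyruvate and ATP in the last step of glycolysis (GENCODE 29 on GRCh38: chromosome 15, 72199029 to 72231822, minus strand). It stood at 1218, 1108, 1157 and 1116 CPM in the libraries numbered 2 of S100A8/S100A9, S100A9, S100A8 and control, against 1386, 1274, 1242 and 1250.3 CPM in those numbered 1, in the same order of groups. Every library numbered 2 was below every one numbered 1 and was the lowest of its group, and the log2 difference was -0.16 (SE 0.03, adjusted p = 0.00014). LDHA (chromosome 11, 18394388 to 18408425, plus strand) had 382, 342, 373 and 366 CPM in number 2, against 419, 396, 386 and 395 CPM in number 1. These did not overlap either (-0.13, SE 0.03, adjusted p = 0.0079), and all 4 libraries numbered 3, at 382, 353, 369 and 368 CPM, were below number 1 as well. ENO1, with 1253, 1157, 1295 and 1234 CPM in number 2 and 1412, 1306, 1284 and 1323 CPM in number 1, overlapped between the numbers but passed the test (-0.11, adjusted p = 0.021). PGAM1 had 460.5, 439, 453 and 432 CPM in number 2 and 513, 483, 463 and 462 CPM in number 1, without overlap (-0.11, adjusted p = 0.027).

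HIF1A (chromosome 14, 61695513 to 61748259, plus strand), the oxygen-regulated subunit of HIF-1, had 1707, 1736, 1636 and 1718 CPM in the libraries numbered 2, against 1876, 1885, 1857 and 1831 CPM in those numbered 1. Number 2 was the lowest in 4 of 4 groups (-0.13, SE 0.03, adjusted p = 0.0016). PDK1 (chromosome 2, 172555373 to 172608669, plus strand) went the other way, with 35.4, 31.8, 35.6 and 31.5 CPM in number 2, against 29.2, 26.2, 30.6 and 26.9 CPM in number 1. Number 2 was the highest in 4 of 4 groups, and the log2 difference was 0.25 (SE 0.06, adjusted p = 0.0053). PKM, HIF1A and PDK1 were picked by the test for number, so their order within groups is no further evidence. The share of all genes with such an order was not counted. NDRG1 had 58.8, 57.7, 63.6 and 62.5 CPM in number 2 and 53.0, 53.0, 54.7 and 57.1 CPM in number 1, without overlap (0.15, adjusted p = 0.044). NDRG1 was the 1 called of 9 genes listed under HIF targets, beside 4.22% of all genes. GPI, the glucose phosphate isomerase, and PFKFB3 were also lower in every library numbered 2 than in any numbered 1. With them 6 members lay wholly below and 2 wholly above (17.6% and 5.88% of 34, beside 4.44% and 4.46% of all genes).

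**Figure D3:**
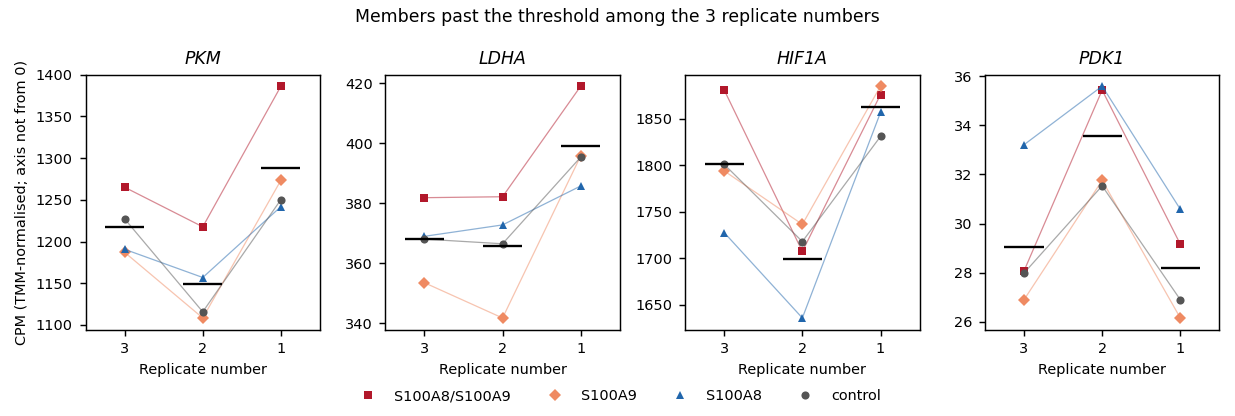
CPM of PKM, LDHA, HIF1A and PDK1 in each library by replicate number, coloured by group, with a bar at the mean of the 4 libraries of a number and thin lines joining the libraries of a group. The vertical axes do not start at 0. Number 2 lies below number 1 in PKM, LDHA and HIF1A and above it in PDK1 in all 4 groups.

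Some of the calls by number were lost when single libraries were left out, while the fitted differences kept their direction. PKM, HIF1A and PDK1 passed for number 2 against 1 in each of the 12 fits that left out 1 library, LDHA in 10, ENO1 in 7, PGAM1 in 6 and NDRG1 in 3. Over these fits the log2 difference was -0.15 to -0.11 for LDHA, -0.14 to -0.09 for ENO1, -0.13 to -0.09 for PGAM1 and 0.12 to 0.18 for NDRG1. Of the 7 calls, 4 were left without control library 1, 4 without control library 2, 4 without S100A8/S100A9 library 2, 3 without S100A9 library 1 and 3 without S100A9 library 2. Of the 4 calls among the 3 numbers, 2 were left without library 2 of control, S100A9 or S100A8/S100A9, and 6 were made without S100A8 library 1 or 2. DESeq2 called 6 and 3 members, and limma on log2(FPKM + 1) called 0 and 0, where it called 53 and 6 genes in all.

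Several measures of the libraries were set beside these differences. Total counts were 15882193 to 19541684 in number 2 and 16398067 to 20748334 in number 1, the mitochondrial share was 5.69% to 6.45% and 5.69% to 6.41%, and the share of the 100 most abundant genes was 19.7% to 20.3% and 19.6% to 20.3%, so the ranges overlapped. Over 13376 genes the log2 difference of number 2 against 1 had a Spearman correlation of -0.11 with GC content and -0.013 with transcript length, a description across genes, which are not independent. Their part in the result was not tested. PGAM1, GAPDH, BNIP3 and LDHA have 13, 62, 39 and 6 pseudogenes named after them in GENCODE 29. PKM, ENO1, TPI1, LDHB and ALDOA have 5, 4, 4, 3 and 2, and HIF1A, HK2, PGK1, EGLN1 and EGLN3 have 1 each. Of these pseudogenes 0 are rows in the table, so reads shared with such copies cannot be told apart. The levels of these genes are uncertain to that extent.

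For the 4 genes that passed among the numbers, the 250 bases before the RefSeq start (GRCh38.p14, gene strand) are shown because HIF binds the letters ACGTG or GCGTG, its core site, in the promoters of many of its targets. Capitals mark these letters on either strand.
LDHA, chr11:18394313-18394562, plus strand: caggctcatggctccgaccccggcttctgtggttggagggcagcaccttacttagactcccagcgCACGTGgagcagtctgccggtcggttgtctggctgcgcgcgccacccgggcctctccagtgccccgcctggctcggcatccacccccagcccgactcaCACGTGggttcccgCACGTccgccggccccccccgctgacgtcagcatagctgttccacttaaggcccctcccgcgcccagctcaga
PKM, chr15:72231191-72231440, minus strand: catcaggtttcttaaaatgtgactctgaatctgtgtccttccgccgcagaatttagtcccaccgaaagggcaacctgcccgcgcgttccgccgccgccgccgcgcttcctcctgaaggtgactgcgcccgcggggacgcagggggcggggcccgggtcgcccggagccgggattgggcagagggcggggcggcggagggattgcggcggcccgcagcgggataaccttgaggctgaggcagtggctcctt
HIF1A, chr14:61695263-61695512, plus strand: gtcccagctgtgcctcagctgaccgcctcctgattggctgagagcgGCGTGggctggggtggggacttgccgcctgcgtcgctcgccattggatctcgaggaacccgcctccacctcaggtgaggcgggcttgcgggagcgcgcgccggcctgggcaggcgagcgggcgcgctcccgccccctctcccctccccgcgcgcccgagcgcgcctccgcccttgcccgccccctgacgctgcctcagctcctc
PDK1, chr2:172555123-172555372, plus strand: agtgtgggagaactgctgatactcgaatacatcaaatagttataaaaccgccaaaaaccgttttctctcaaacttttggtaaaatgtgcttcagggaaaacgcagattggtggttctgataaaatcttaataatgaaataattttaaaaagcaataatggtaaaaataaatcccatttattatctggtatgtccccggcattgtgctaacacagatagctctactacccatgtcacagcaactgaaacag

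LDHA held 5 matches in this window, counting each of 2 palindromic CACGTG runs on both strands, HIF1A held 1, and PKM and PDK1 held 0. CACGTG is also the E-box read by other factors. Only the first entry of each gene name was read, so matches before any other start of a gene were not counted. Of the members, 32 had an entry, and 23 of these (71.9%) held at least 1 match, beside 57.2% of 10827 promoters of tested genes and 43.1% of all 27305 entries. The median GC content of these windows was 69.8% for the members and 65.2% for the tested genes. A match is a run of letters, not a site shown to be bound, and of the 6 genes called for number 2 against 1 that had an entry, 3 held one.

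As a description of where the set varied, the variance of log2 CPM over the 12 libraries was split into group, replicate number and residual. The median member had 29.1% by treatment group, 22.4% by number and 40.8% residual, beside 25.8%, 18.5% and 48.0% for the median of all 13512 genes. Group has 3 of the 11 degrees of freedom and number has 2, which by themselves give 27.3% and 18.2%. The share of number exceeded that of group in 18 of 34 members (52.9%), beside 41.0% of all genes, and number took over 50% in 8 members (23.5%), beside 10.3% of all genes. Group took over 50% in 4 members, EPAS1, HK2, PFKL and VEGFA (11.8%), beside 13.7% of all genes. The median share by number was below that by treatment, an order that the degrees of freedom give by themselves and that all genes had too. It does not tell which of these the set followed more. The F statistics of 1 fit had medians of 1.59 for group and 1.36 for number, beside 0.972 and 1.01 over all genes, and F was larger for number in 18 of 34 members and in 7009 of 13512 genes.

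The members differed widely in this respect. PFKFB4, a kinase-phosphatase that sets a glycolytic activator, had the largest share by number, 76.6%, with 8.38, 8.34, 8.65 and 8.67 CPM in the libraries numbered 3, 7.66, 6.95, 6.86 and 6.46 CPM in those numbered 2 and 7.76, 7.61, 8.27 and 7.29 CPM in those numbered 1, and it was highest in number 3 and lowest in number 2 in 4 of 4 groups. PFKFB4 was picked for this share, so its order by number follows from the choice, and it did not pass the threshold (adjusted p = 0.29). HIF1A had 73.5% by number, HK1 61.8% and PKM 61.6%. HK1 had 159 ± 3.87 CPM in number 3, 148 ± 5.22 CPM in number 2 and 161 ± 5.97 CPM in number 1 (SD, n = 4). At the other end TPI1 had 1.09% and ALDOC 0.252% by number. TPI1, at 629 ± 9.57, 631 ± 4.62 and 632 ± 17.2 CPM in numbers 3, 2 and 1, had the smallest SD of log2 CPM among the tested members (0.02), whereas 77.1% of the variance of the low ALDOC was residual. By role the median share by number was 43.5% in the 4 pyruvate genes, 30.7% in the 10 upper and 28.7% in the 7 lower glycolytic genes, 15.0% in the 4 oxygen sensing genes and 7.36% in the 9 HIF targets. The median share by group was 25.6%, 25.2%, 31.5%, 18.9% and 32.7% in the same order of roles.

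**Figure D4:**
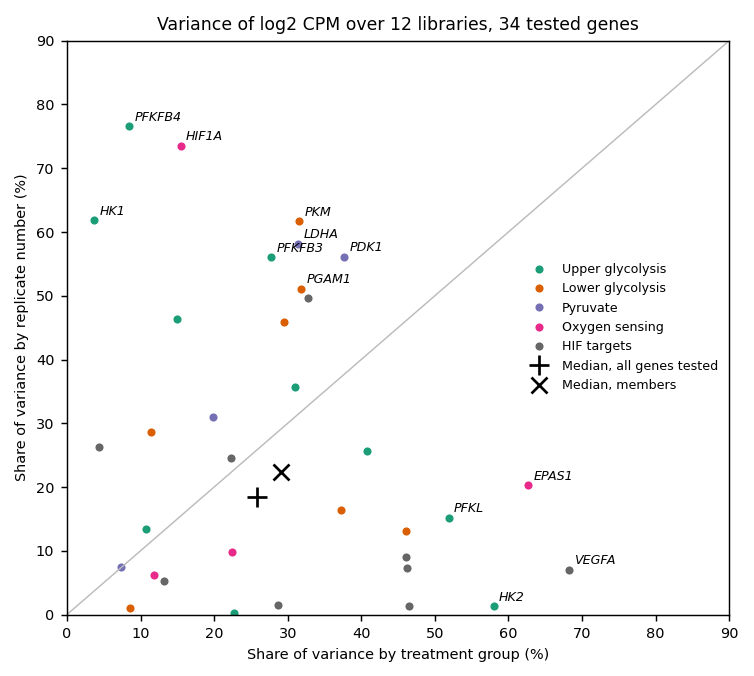
Share of the variance of log2 CPM by treatment group (horizontal, %) and by replicate number (vertical, %) for each of the 34 tested genes, coloured by role, with the medians of the members (cross) and of all tested genes (plus) and a line of equal shares. Genes over 50% on either axis are named, 8 for number and 4 for group.

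By library, the median deviation of the 34 members from their means was largest in S100A8/S100A9 library 1, at 0.05, and in S100A9 library 2, at -0.06, on the log2 scale. In S100A8/S100A9 library 1 22 of 34 members were above their mean, and in S100A9 library 2 it was 11. Over the glycolytic genes alone these 2 libraries were at 0.07 and -0.06. S100A9 libraries 1 and 3 were at 0.04 and -0.00405 over all members, so libraries of 1 group lay on either side of 0.

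**Figure D5:**
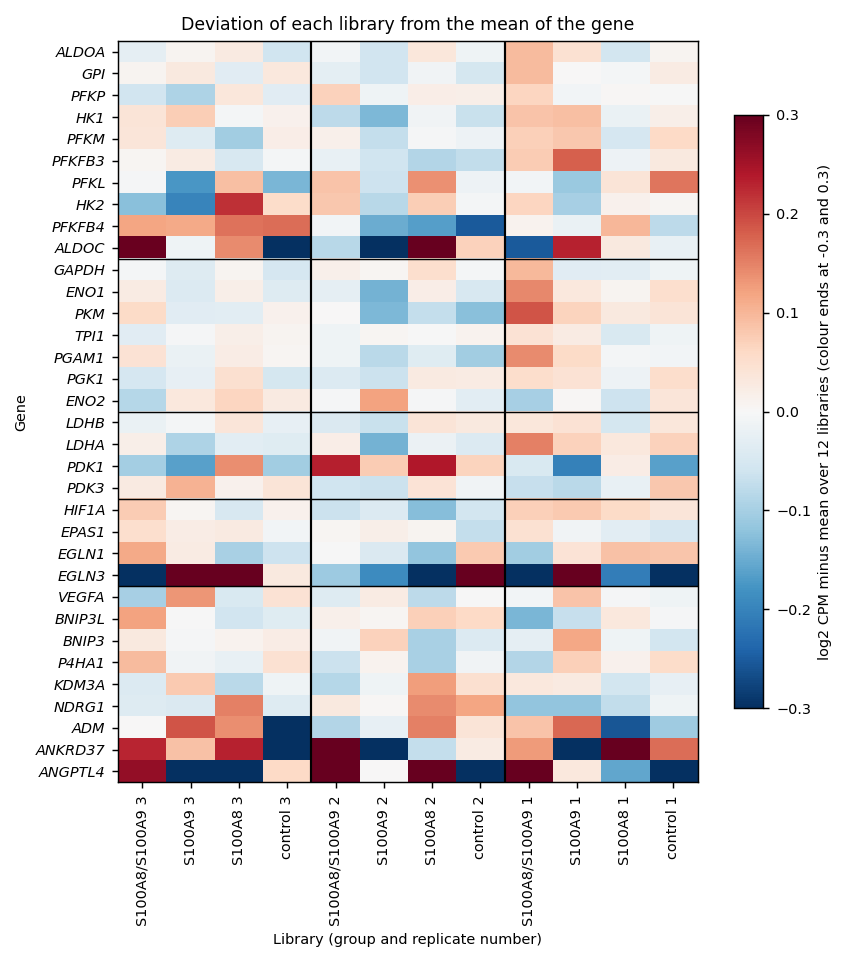
Log2 CPM of each tested gene minus its mean over 12 libraries, with libraries ordered by replicate number (3, 2, 1) and genes by role; the colours end at -0.3 and 0.3. PKM and HIF1A are mostly blue in the block of number 2 and red in number 1, PDK1 is red in number 2, and 0 members passed the threshold for treatment.

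Around the members, 6 further lists held 116 genes of the same pathways, of which 98 were tested. With treatment 1 of the 98 passed, in S100A8/S100A9 against S100A9, beside 0.252% of all genes there. P4HA2, a collagen prolyl hydroxylase and HIF target, had 43.3, 39.8 and 43.3 CPM in S100A8/S100A9 libraries, against 47.6, 56.1 and 56.0 CPM in S100A9 libraries. The groups did not overlap, with a log2 difference of -0.34 (SE 0.07, adjusted p = 0.020). The call was lost without S100A9 library 2 or 3 and without any 1 of the S100A8/S100A9 libraries, where the adjusted p was 0.063 to 0.25, and on the FPKM scale. Against control P4HA2 did not pass in either arm.

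By number 2 against 1, 11 of these 98 genes passed (11.2%, 7 higher and 4 lower, beside 4.22% of all genes). Lower were the glucose transporter SLC2A1 (GLUT1), 1 of 10 tested transport genes, with 252 ± 8.92 CPM in number 2 and 274 ± 9.62 CPM in number 1 (-0.12, adjusted p = 0.014), and the lysyl hydroxylase PLOD2 (-0.19, adjusted p = 0.0017). PRPS1, which makes the ribose donor for nucleotides, was lower by the same measure (-0.17, adjusted p = 0.0022), as was the pyruvate carboxylase PC (-0.43, adjusted p = 0.013), the 1 called of 4 tested genes of gluconeogenesis. Higher were the hexokinase relative HKDC1, with 341 ± 15.0 CPM in number 2 and 305 ± 14.4 CPM in number 1 (0.16, adjusted p = 0.0012), the pyruvate dehydrogenase phosphatase PDP1 (0.12), H6PD (0.16), an enzyme of the pentose phosphate route in the endoplasmic reticulum, CITED2 (0.11), which competes with HIF for its coactivator, and the HIF target WSB1 (0.13). STC2, a secreted glycoprotein hormone gene, was also higher (0.14). Of the 45 tested genes in the list of further HIF targets 3 were higher and 2 lower. Of 17 alternatives, the call for 2 against 1 was lost in 10 for PDP1, 9 for H6PD and 8 each for CITED2 and WSB1. It was lost in 6 each for SLC2A1 and PC, and in 2 each for PLOD2, PRPS1 and HKDC1. Number 3 against 2 called PLOD2 (0.16) and WSB1 (-0.15), calls that were lost in 11 and 12 of 17 alternatives. Number 3 against 1 called 0 by edgeR, with 2 of 98 at an unadjusted p under 0.05.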

How the data were processed

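RNA of 12 libraries was measured by sequencing, 3 in each of 4 groups taken from the labels. The table the authors deposited holds an expected count per gene and library, which per the file headers is a read count and of which 12.0% are not whole. The same table holds FPKM, made by the authors per gene length and library size. How reads were aligned and counted is not given in the sources used here. Mouse builds (GRCm38, mm10) appear in the submitters' processing notes, but the table's IDs are human Ensembl IDs. Coordinates come from GENCODE 29 on GRCh38. The members and lists were chosen with earlier results of these data known.

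Counts were rounded and tested with edgeR 4.0.16 (R 4.3.3; TMM normalisation, quasi-likelihood test with robust dispersion, filterByExpr with a minimum count of 10), which left 13512 of 20286 genes. Treatment comparisons used all 12 libraries with group as the term (8 residual degrees of freedom), and comparisons of replicate numbers used group and number (6). P-values were adjusted over all tested genes by Benjamini-Hochberg, with a threshold of 0.05, and the common biological coefficient of variation was 4.65%. Levels are CPM, counts scaled to TMM-normalised library size. Log2 CPM used a prior count of 2. The script was tested on simulated data. Alternatives were DESeq2 1.42.0, its size factors, no filter, limma 3.58.1 on log2(FPKM + 1), the compared libraries alone, a replicate block and leaving out each library. A pseudocount of 0.1 was added after seeing the data.

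Genes given with values were those past the threshold, those of smallest p in each direction of each treatment comparison, the highest and lowest in control, those with the largest and smallest share of variance by number, and 8 genes in any case. From each further list up to 3 called genes were taken by p, and STC2, GPI and PFKFB3 were named after their values were seen. Of the genes counted in the further lists, 1 is not reported here by name. Depth was 15882193 to 20748334 counts per library. A count of 0 allows up to 3 counts, for counting error only, and reads without molecular identifiers are not independent molecules. Figures were drawn with matplotlib 3.10.9 in Python 3.11.15.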

Additional observations from a re-analysis of the deposited data

Results flagged for a closer look

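Of 21 sets of 4 libraries with the same replicate number, over the genes given by number, 1 had a library far from the other three. NDRG1 stood at 63.9 CPM in S100A8 library 3, against 55.8 to 56.1 CPM in the other libraries numbered 3. The 4 libraries of a number come from 4 different groups, so a group difference can also set one apart. S100A8 library 2, at 63.6 CPM, was the highest of its number too. Chance flags about 1 in 20 such sets. Treatment groups, with 3 libraries each, were not examined in this way.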

How the results depend on the processing

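With treatment 0 members passed under each alternative run. The counts by number moved. Both limma fits on FPKM, with pseudocounts of 1 and 0.1, called 0 members for number 2 against 1 and 0 among the 3 numbers, and the cause was not tested. Leaving out 1 library at a time gave 3 to 8 members for 2 against 1, 2 to 6 among the numbers and 0 to 1 for 3 against 2. The median share of variance by number was 19.3% without the filter and 16.9% on log2(FPKM + 1). Leaving out 1 library gave 18.4% to 28.9% by number and 26.6% to 34.6% by group.

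Of 709 values of 49 named differences under alternatives, 565 kept direction and side of the threshold and 120 lost the call. Only differences past the threshold in the main fit could lose it, so the 120 belong to a smaller base than 709. For number 2 against 1 the call was lost in 2 of 17 alternatives for PKM and in 12 of 17 for NDRG1. The other 24 values changed sign, all in comparisons with control that had not passed. On log2(FPKM + 1) and log2(FPKM + 0.1) these were LDHA at 0.0115 and 0.0115 and ANGPTL4 at -0.0275 and -0.0646 for S100A9, PFKM at 0.0744 and 0.0768 and LDHA at 0.0485 and 0.0486 for S100A8, and VEGFA at 0.0278 and 0.0282 for S100A8/S100A9. With 1 library left out, the ranges for S100A9 were -0.0266 to 0.357 (ANGPTL4), -0.0160 to 0.0447 (HIF1A) and -0.117 to 0.0454 (PDK1). For S100A8 they were -0.0227 to 0.0344 (LDHA), -0.0852 to 0.00705 (HIF1A) and -0.0246 to 0.568 (ANGPTL4). For S100A8/S100A9 they were -0.0417 to 0.0541 (HK2) and -0.00458 to 0.167 (PDK1).

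The replicate numbers were not taken as pairs in the main treatment fits. Of 18 same-numbered pairs 2 had a correlation of deviations over 0.1 (-0.07 to 0.15), both between libraries numbered 2. Pairs of other number and group had -0.16 to 0.095, so the ranges overlapped. Outside their group, 9 of 12 libraries correlated best with their own number, and 4.22% of all genes were called for number 2 against 1. These values are a hint of a shared part by number, from the data only, and do not show what the number marks. With the replicate block 0 members passed in each treatment comparison. Over all genes the block gave 42, 2 and 2 calls for S100A9, S100A8 and S100A8/S100A9 against control, where the fit without it gave 20, 1 and 0. It gave 71 for S100A8/S100A9 against S100A9 and 69 for S100A9 against S100A8 (34 and 25 without it), and 72 among the 4 groups (30 without it). DESeq2 called 347 genes for number 2 against 1, where edgeR called 570, and 220 among the numbers, where edgeR called 350. Limma on log2(FPKM + 1) called 53 and 6, and with 0.1 it called 21 and 2.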

Other observations

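The count divided by FPKM and by library size gives the gene length that each library's FPKM implies, and for some members it was not constant. Its coefficient of variation over 12 libraries was under 1% in 14 of 34 members and over 5% in 8, with a median of 2.26%. Over 11481 tested genes above 1 FPKM in every library it was under 1% in 3364 and over 5% in 3099, with a median of 2.54%. The members were not limited in this way, so the sets are unlike. ALDOC, EGLN3 and ANGPTL4 had mean control levels under 1 FPKM. PKM (0.328%) and HIF1A (0.0426%) were near constant. PDK1 (6.45%), PFKFB3 (8.09%), PFKM (8.41%), PDK3 (8.73%), PFKFB4 (12.4%), ALDOC (16.3%), EGLN3 (18.6%) and ANGPTL4 (20.1%) were not. For PFKM the implied length averaged 1936 bases in S100A8/S100A9 libraries, 2049 bases in S100A9 libraries, 2068 bases in S100A8 libraries and 2304 bases in control libraries.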
